A study of Mus musculus with 8 samples.

Results

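Cux2, its paralogue Cux1 and 7 other transcription factors that define the hepatocyte were followed in male and female mouse liver with and without Bcl6. The members are Cux2, Cux1, Onecut1, Onecut2, Foxa1, Foxa2, Hnf4a, Cebpa and Cebpb, chosen by gene symbol through the RefSeq accession that the array gives each probe. All 9 were on the array, read by 14 of its 56605 probes: 5 probes for Cux1, 2 for Hnf4a and 1 for each of the others. The whole table held 26548 genes and unnamed transcripts that passed the filter on dim signals, and each of the 9 members was among them.

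RNA from whole liver was measured on 1-colour Agilent arrays, 1 array per sample, 8 arrays in 4 groups of 2. The groups were male mice labelled as lacking Bcl6 specifically in the liver (male knockout), male wild type, female mice with the same label (female knockout) and female wild type, all 10 to 11 weeks old per the labels. Bcl6 is a zinc-finger repressor of transcription. What drives its deletion is not stated in the labels. Nothing beyond the replicate names says that arrays came from separate animals, so a p-value covers only the spread among these samples. Throughout, a level is the log2 of the processed signal minus the 75th percentile of the same array, so that 0 means a signal at that percentile. A difference is a difference of such levels, and levels of different probes are not set against each other, except in the marker sums below. For 2 arrays against 2, groups that do not overlap give a 2-sided permutation p of 0.333, the smallest possible. Overlap or its absence is therefore only a description of the values, and the share of all genes without overlap was not counted.

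The 1 probe for Bcl6 was not lower on the arrays labelled knockout: its level was 4.49 and 4.01 in male knockout against 3.97 and 2.91 in male wild type, and 1.62 and 4.41 in female knockout against 2.95 and 0.86 in female wild type. The sources do not say whether this probe reads the deleted stretch. It therefore checks no label, and every direction below follows the labels. Between 33677 and 36459 spots per array were well above background and none was saturated. Arrays of 1 group correlated at 0.987 to 0.993 across genes, and arrays of different groups at 0.960 to 0.991. These ranges overlap, and genes are no independent replicates. The hepatocyte markers Alb, Apob and Serpina1c were high on every array (their 8 measured markers averaged a level of 8.59 to 8.77). All 8 arrays lay on 1 slide, females in row 1 and males in row 2, so slide row and sex cannot be told apart; each row held both genotypes.

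Hepatocyte identity rests on a network of such factors that bind each other's promoters and those of liver genes. FOXA proteins open chromatin, HNF4A is a nuclear receptor needed for much of the liver programme, the ONECUT proteins (Onecut1 encodes HNF6) carry a CUT domain and a homeodomain, and C/EBP factors are leucine-zipper proteins that drive metabolic and acute phase genes. CUX proteins also carry CUT domains and a homeodomain. Cux2 is known in mouse liver as a female-specific factor set by the pattern of growth hormone release, and it represses many male-biased genes.

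The promoters of Cux2, the member with the largest change, are shown with that of Cebpb, which changed the other way in both sexes. Each runs 5′ to 3′ from 250 bases before to 50 bases after a transcription start (RefSeq, build GRCm38.p6); capitals mark a match to a searched motif. The 2 Cux2 windows are chr5:122049802-122050101 and chr5:122047776-122048075, both on the minus strand, and the Cebpb window is chr2:167688665-167688964 on the plus strand.
Cux2 promoter 1: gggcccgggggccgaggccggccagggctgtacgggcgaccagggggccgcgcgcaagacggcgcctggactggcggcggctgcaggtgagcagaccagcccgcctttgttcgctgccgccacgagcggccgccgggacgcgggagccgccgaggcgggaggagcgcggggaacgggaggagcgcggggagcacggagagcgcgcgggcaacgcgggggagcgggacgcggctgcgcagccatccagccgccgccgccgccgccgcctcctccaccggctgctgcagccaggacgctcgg
Cux2 promoter 2: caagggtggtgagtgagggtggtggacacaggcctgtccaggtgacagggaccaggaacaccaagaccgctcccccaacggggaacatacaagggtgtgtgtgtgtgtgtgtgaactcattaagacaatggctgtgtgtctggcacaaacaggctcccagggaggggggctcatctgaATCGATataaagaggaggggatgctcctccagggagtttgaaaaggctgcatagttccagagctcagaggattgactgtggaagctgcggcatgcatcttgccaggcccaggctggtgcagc
Cebpb promoter: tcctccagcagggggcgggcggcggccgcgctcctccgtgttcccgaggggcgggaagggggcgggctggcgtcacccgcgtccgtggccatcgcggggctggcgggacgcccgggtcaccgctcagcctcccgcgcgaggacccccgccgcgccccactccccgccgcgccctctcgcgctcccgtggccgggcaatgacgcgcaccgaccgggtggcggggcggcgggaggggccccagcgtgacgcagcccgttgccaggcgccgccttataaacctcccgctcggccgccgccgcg
The first Cux2 window was 80.3% G or C and the second 56.7%, while the Cebpb window was 80.7%. Promoters of 8 of the 9 members were in the RefSeq table, 12 windows in all, and 4 motifs were searched on both strands, the first of those below added after the sequences were seen. ATCGAT, a palindrome bound by CUT domain proteins, began 72 bases before the second Cux2 start and was in no other member window; 0.925% of all 32851 windows held it. ATCAAT, the related core that HNF6 also binds, was found once in a Foxa2 window and once in an Hnf4a window, against 7.54% of all windows. TTCNNNGAA, the form STAT5 binds, and TTCCTNGAA, a BCL6-like form contained in it, were in none of the 12 windows, against 8.30% and 1.59% of all. A match describes letters only, and a single probe does not tell which of the starts was used.

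Cux2 was the member that separated the groups most. Its level was 2.59 and 2.47 in male knockout livers, against -6.23 and -5.84 in male wild-type livers, where the probe was not well above background on either array. In female knockout livers it was 2.76 and 2.39, against 0.58 and 1.25 in female wild-type livers. The levels did not overlap in either sex, and the male and female knockout arrays lay in 1 band.
By limma with Benjamini-Hochberg adjustment over all 26548, Cux2 rose in male knockout at least 109-fold (fitted log2 difference 8.57 ± 0.26 SE, n = 2 per group, adjusted p = 0.000174). The bound sets each male wild-type array to the lowest signal called well above background on it. With normexp background correction, which lifts dim signals, the fitted male difference was 3.92, less than the log2 bound of 6.77. The fold bounds given for Cux2 therefore hold for the main processing only. In females it rose 3.15-fold (1.66 ± 0.26, adjusted p = 0.0240). This female call was lost when female knockout replicate 1 (adjusted p = 0.122) or 2 (0.0625) was left out, or when male knockout replicate 1 (0.0628) or 2 (0.0595) was. It was also lost without the filter on dim probes (adjusted p = 0.0707) and in a fit of the female arrays alone (0.101). The knockout difference was larger in males than in females by 6.91 ± 0.37 (limma interaction, adjusted p = 0.00948), and by 5.12 with the male difference at its bound. Between sexes, Cux2 was lower in wild-type males than in wild-type females (difference -6.95 ± 0.26, at least 35.7-fold, adjusted p = 0.000478; -2.42 with normexp). In knockout the male minus female difference was -0.04, with a 95% interval of -0.68 to 0.60 and adjusted p = 0.995, so a male level up to 0.68 lower or 0.60 higher could not be told from none.

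**Figure D1:**
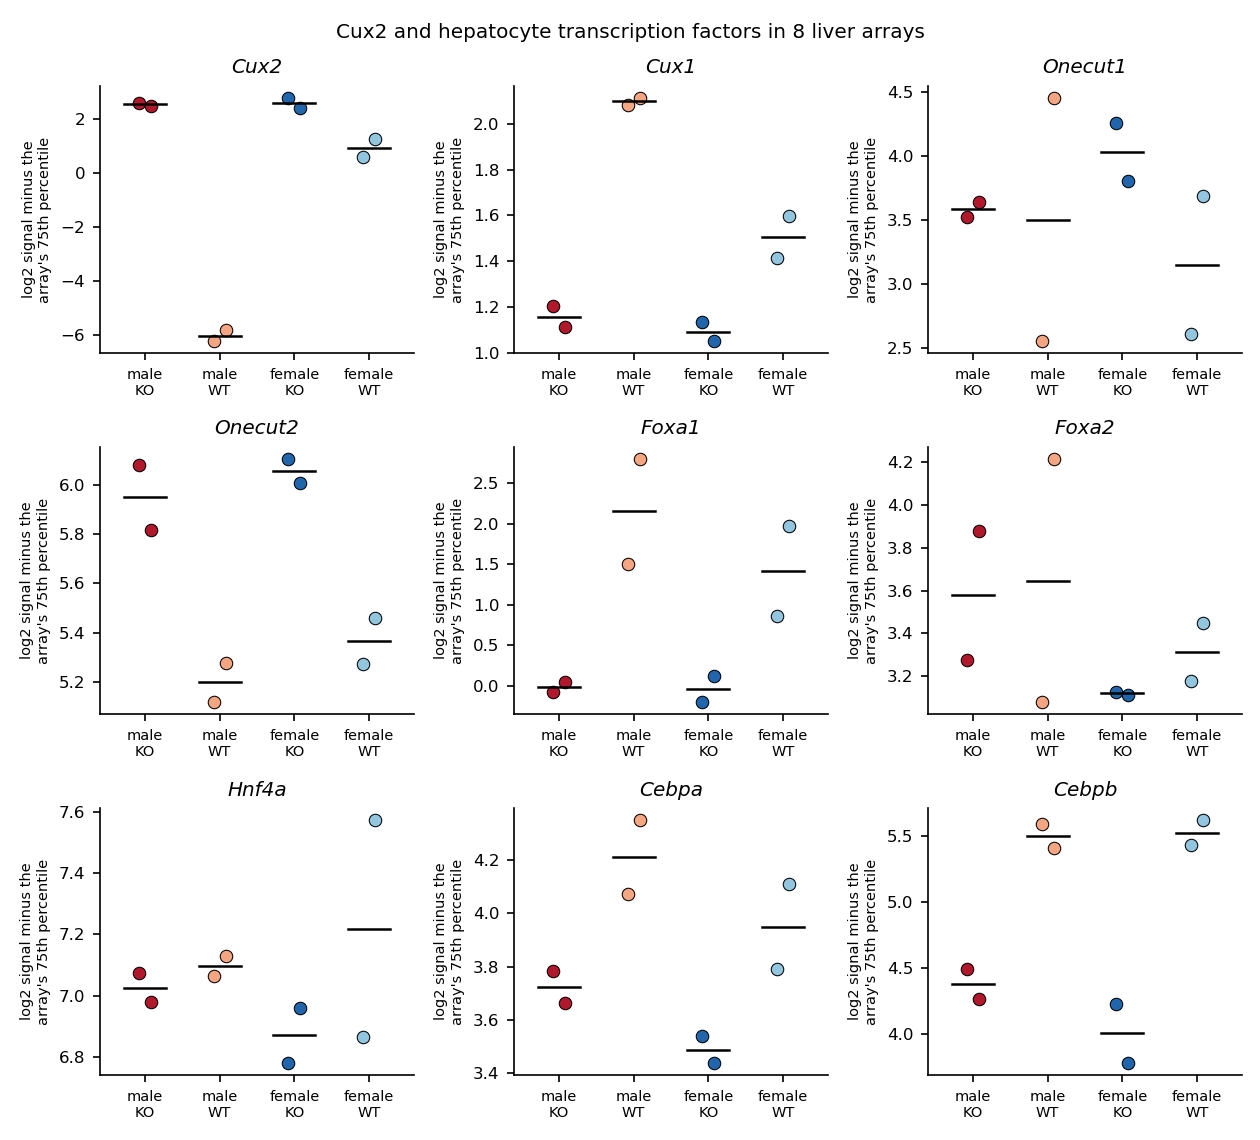
Level (log2 signal minus the 75th percentile of the array, its own scale per panel) of each member on the 8 arrays, by group; points are arrays and bars are means of 2. Cux2 lay between 2.39 and 2.76 on all 4 knockout arrays and at or below -5.84 on both male wild-type arrays.

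Cux1, the broadly expressed paralogue, went the opposite way. The probe that stood for it (A_52_P442676, RefSeq NM_198602) had levels of 1.21 and 1.11 in male knockout, against 2.08 and 2.11 in male wild type. In female knockout it had 1.13 and 1.05, against 1.41 and 1.60 in female wild type. Knockout arrays were below wild-type arrays in both sexes, and male wild type was the highest group.
Cux1 fell by 0.94 ± 0.11 in male knockout (1.92-fold, limma adjusted p = 0.00555), a call kept in each of the 8 fits that left out 1 array. In females the difference was -0.41 ± 0.11 and did not pass (adjusted p = 0.0843), and the interaction of -0.53 ± 0.15 did not pass either (adjusted p = 0.412). Averaged over both sexes it fell by 0.68 ± 0.08 (adjusted p = 0.00331). Wild-type males exceeded wild-type females by 0.59 ± 0.11 (adjusted p = 0.0740), which passed with normexp (0.54, adjusted p = 0.0302), while in knockout the male minus female difference was 0.07 ± 0.11.
The other Cux1 probes did not all read the same size. Tested each on its own over all kept probes, the averaged difference was -0.68 for A_52_P442676, -0.71 for A_52_P567658, -0.59 for A_55_P2741614 and -0.41 for A_66_P112487 (limma adjusted p of 0.00342, 0.0955, 0.0361 and 0.0216). All 4 were below 0 in both sexes. A_51_P375237 was well above background on no array and gave no test.

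**Figure D2:**
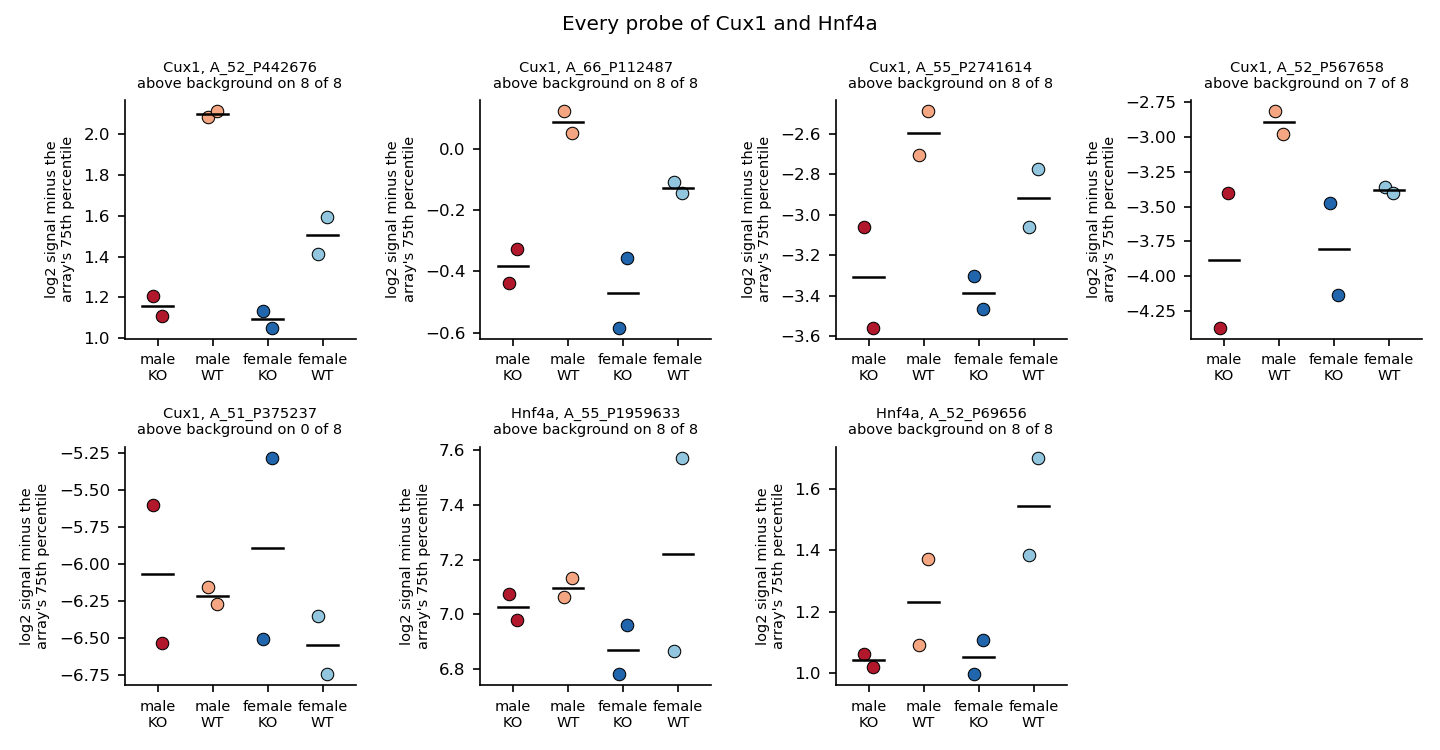
Level (log2 signal minus the 75th percentile of the array) of each of the 5 Cux1 and 2 Hnf4a probes on the 8 arrays, by group; points are arrays, bars are means of 2, and each panel has its own scale. In the 4 Cux1 probes above background the mean of each knockout group lies below that of its wild type.

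Of the 2 ONECUT genes, Onecut2 passed and Onecut1 did not; the genes were not tested against each other. Onecut2 had levels of 6.08 and 5.82 in male knockout, against 5.12 and 5.28 in male wild type. It had 6.10 and 6.01 in female knockout, against 5.27 and 5.46 in female wild type. All 4 knockout arrays lay above all 4 wild-type arrays.
Onecut2 rose by 0.75 ± 0.14 in males (1.68-fold, limma adjusted p = 0.0248), by 0.69 ± 0.14 in females (1.61-fold, adjusted p = 0.0442) and by 0.72 ± 0.10 averaged over both sexes (adjusted p = 0.00616). The averaged call was kept in each of the 8 fits without 1 array. The female call was lost in all 8 (adjusted p = 0.0705 to 0.194). The male call was lost in 6 of 8, without any male array or either female knockout array (highest adjusted p = 0.122). Without the filter on dim probes the Onecut2 calls in males (adjusted p = 0.0790) and females (0.131) were lost, as in fits of 1 sex alone (0.0619 and 0.122), and in females with a replicate block (0.0730). The 2 sexes' differences differed by 0.06 ± 0.19 (adjusted p = 0.947).
Onecut1, which encodes HNF6, a liver factor that works with growth hormone signalling, varied widely inside the wild-type groups. Its level was 3.53 and 3.65 in male knockout, against 2.56 and 4.46 in male wild type. In females it was 4.26 and 3.81 in knockout, against 2.61 and 3.69 in wild type. Male knockout lay inside the range of male wild type, and the female groups did not overlap.
No Onecut1 comparison passed: the knockout difference in males was 0.08 ± 0.65 (limma adjusted p = 0.952) and that in females 0.88 ± 0.65 (adjusted p = 0.439). The 95% interval in males, -1.50 to 1.65, spans both directions.

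Of the 2 FOXA members, Foxa1 passed and Foxa2 did not, again with no test between them. Foxa1 had levels of -0.08 and 0.04 in male knockout, against 1.51 and 2.80 in male wild type. In female knockout it had -0.20 and 0.13, against 0.86 and 1.97 in female wild type. The 4 knockout arrays lay close together, below every wild-type array, while the wild-type arrays of each sex lay far apart.
Foxa1 fell by 2.17 ± 0.51 in male knockout (4.49-fold, limma adjusted p = 0.0485) and by 1.81 ± 0.36 averaged over both sexes (adjusted p = 0.0200). In females the difference was -1.45 ± 0.51 (adjusted p = 0.149). The male difference was -2.81 without male wild-type replicate 1 and -1.52 without replicate 2. The male call was lost without male knockout replicate 1 (adjusted p = 0.180) or 2 (0.164), male wild-type replicate 2 (0.158) or female knockout replicate 1 (0.0915) or 2 (0.0899), and with quantile normalization (0.0516), no filter on dim probes (0.116) or the male arrays alone (0.0779). The averaged call was lost without male knockout replicate 1 (0.0682) or 2 (0.0630) or female knockout replicate 1 (0.0738) or 2 (0.0542), and without the filter (0.0533).
Foxa2, a FOXA factor active in fasting metabolism, had levels of 3.28 and 3.88 in male knockout, against 3.08 and 4.22 in male wild type, and of 3.13 and 3.11 in female knockout, against 3.18 and 3.45 in female wild type. The averaged difference was -0.13 ± 0.27 (limma adjusted p = 0.760, 95% interval -0.80 to 0.53). Male knockout overlapped male wild type, and the female groups did not overlap.
Replicate 2 was the higher wild-type array for Onecut1, Foxa1 and Foxa2 in both sexes. The same held for every other member except Cebpb, which was higher there in females only. On the 2 wild-type arrays of replicate 2, Nfil3, a repressor of clock output genes, was at its lowest of the 8 arrays. Its level was 2.0 in male and 1.52 in female wild type, against 3.17 and 2.44 on the replicate 1 arrays. Igfbp1, a secreted IGF-binding protein induced by fasting, was also at its lowest there, 5.46 in male and 3.80 in female wild type. The knockout arrays of replicate 2 stood apart too. Nfil3 was highest of the 8 arrays there, 3.83 in male and 4.03 in female knockout, against 3.22 and 2.79 on replicate 1. Dbp, a clock output gene, was 1.33 and 1.5 on these arrays, against 4.15 and 5.66 on knockout replicate 1, and 3.75 to 5.57 in wild type. Tef, a relative of Dbp, was 4.08 and 4.16 there, against 4.93 and 5.29 on knockout replicate 1. These genes thus differed between replicates of both genotypes. Their part in the spread of Foxa1, Foxa2, Onecut1 and the other members was not tested.

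Hnf4a, the nuclear receptor of the network, showed no difference that passed. Its brighter probe (A_55_P1959633) had levels of 7.07 and 6.98 in male knockout, against 7.06 and 7.13 in male wild type. In female knockout it had 6.78 and 6.96, against 6.86 and 7.57 in female wild type. On this probe the groups overlapped in both sexes.
The male knockout difference was -0.07 ± 0.23 (limma adjusted p = 0.878, 95% interval -0.63 to 0.49) and the female one -0.35 ± 0.23 (adjusted p = 0.391). Averaged over both sexes it was -0.21 ± 0.16 (adjusted p = 0.392); without female wild-type replicate 1, the lower of that pair, it was -0.39 and passed (adjusted p = 0.0406). A second probe, A_52_P69656, gave -0.34 ± 0.11 averaged over both sexes (limma adjusted p = 0.0771 over all probes). Its difference was -0.19 in males (adjusted p = 0.480) and -0.49 in females (adjusted p = 0.124). Unlike on the brighter probe, knockout arrays lay below wild-type arrays without overlap in both sexes.

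The C/EBP genes were both lower in knockout. Cebpb, whose product is also induced in the acute phase response, had levels of 4.49 and 4.26 in male knockout, against 5.59 and 5.41 in male wild type. In female knockout it had 4.23 and 3.78, against 5.43 and 5.62 in female wild type. The genotypes did not overlap in either sex, and the wild-type groups of the 2 sexes overlapped.
Cebpb fell by 1.12 ± 0.18 in males (2.18-fold, limma adjusted p = 0.0174), by 1.52 ± 0.18 in females (2.87-fold, adjusted p = 0.0107) and by 1.32 ± 0.13 averaged over both sexes (adjusted p = 0.00220). The female and averaged calls were kept in each of the 8 fits without 1 array. The male call was lost without male knockout replicate 1 (adjusted p = 0.0607) or 2 (0.0993), and without replicate 1 (0.0729) or 2 (0.0626) of male wild type. It was also lost without the filter on dim probes (adjusted p = 0.0542), and the female call was lost in a fit of the female arrays alone (0.0683). The difference between sexes in the knockout effect was 0.40 ± 0.26 (adjusted p = 0.756).
Cebpa, the main C/EBP factor of resting liver, had levels of 3.78 and 3.66 in male knockout, against 4.07 and 4.35 in male wild type. In females it had 3.54 and 3.44 in knockout, against 3.79 and 4.11 in wild type. The groups did not overlap in either sex.
Neither the male difference of -0.49 ± 0.16 (limma adjusted p = 0.109) nor the female one of -0.46 ± 0.16 (adjusted p = 0.141) passed. Averaged over both sexes Cebpa fell by 0.48 ± 0.11 (adjusted p = 0.0320). This call was lost without any 1 of the knockout arrays and without replicate 2 of either wild type (adjusted p = 0.0652 to 0.107), and without the filter on dim probes (0.0904). With normexp the male difference, -0.54, passed (adjusted p = 0.0268).

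**Figure D3:**
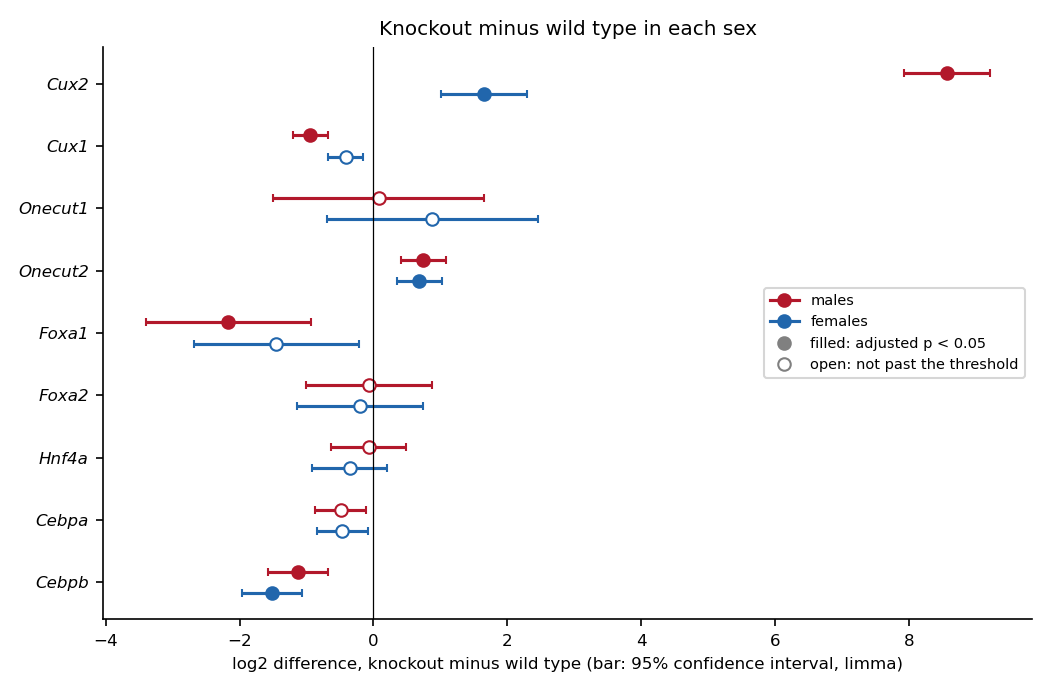
Log2 difference, knockout minus wild type, of each member in males and in females; points are limma estimates from 2 arrays per group, bars are 95% confidence intervals, and filled points passed an adjusted p of 0.05. Onecut2 lies above 0 and Cebpb below 0 in both sexes, and the Cux2 intervals of the 2 sexes are far apart.

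Counted together, 5 of 9 members passed in males (Cux2 and Onecut2 higher, Cux1, Foxa1 and Cebpb lower), where 10.7% of all genes tested were called, 5.77% higher and 4.93% lower. In females 3 of 9 passed (Cux2 and Onecut2 higher, Cebpb lower), where 5.93% of all were called, 3.48% higher and 2.45% lower. Averaged over both sexes 6 of 9 passed, the same 2 higher and Cux1, Foxa1, Cebpa and Cebpb lower, where 19.8% of all were called, 9.82% higher and 10.0% lower. The median difference of the 9 was -0.21 averaged over both sexes, against -0.02 over all genes tested. Between sexes, Cux2 alone of the 9 passed in wild type, where 0.976% of all were called (0.614% higher and 0.362% lower in males), and 0 of 9 passed in knockout by limma, where 0.0753% were called, 0.0565% higher and 0.0188% lower (0 of 9 also at an unadjusted p under 0.05, and 0 of 9 under each of the alternatives run). In the interaction Cux2 again was the 1 member that passed, where 0.188% of all were called, 0.0904% higher and 0.0979% lower. The members were picked with earlier results of these data known, so these counts describe them and test nothing about the set. The comparisons share arrays: the averaged difference is made of the male and female ones.

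The genes whose profile over the 8 arrays was most like that of Cux2 were sought among 681 named genes whose 4 group means spanned at least 2 on the log2 scale. The highest Pearson correlations were those of Acot3 (0.990), an acyl-CoA thioesterase, Slc22a26 (0.987), an organic anion transporter, the noncoding transcript Gm23952 (0.983), the thioesterase Acot4 (0.981), Sybu (0.980) and Greb1l (0.979). Acot3 averaged 4.57 in male knockout against -0.34 in male wild type, and 4.85 in female knockout against 4.04 in female wild type. Sybu and Greb1l also kept the step between female knockout and female wild type (-1.17 against -2.61, and -0.81 against -2.27). The most opposite profiles were those of Cyp2d9 (-0.996), a steroid hydroxylase of male liver, Nat8f5 (-0.990), related to N-acetyltransferases, and the noncoding 4930546K05Rik (-0.987). Cyp2d9 averaged 2.93 in male knockout against 6.68 in male wild type, and 2.66 in female knockout against 3.74 in female wild type. Cyp2d and Acot genes have close relatives to which their probes may also bind. These correlations are a description over n = 8 arrays that share their groups, and the male wild-type arrays, far from the other 6, weigh most in them. The Cux2 values on those arrays, and those of Slc22a26, Sybu and Greb1l, were below the lowest signal called well above background, so their exact size is background and the order of these correlations is not resolved. The same holds for Nat8f5 on the knockout arrays and for 4930546K05Rik outside male wild type. Among the members, the correlation with Cux2 was -0.958 for Cux1, 0.805 for Onecut2, -0.786 for Cebpa, -0.782 for Foxa1 and -0.676 for Cebpb, and was -0.308 for Foxa2, 0.180 for Onecut1 and -0.170 for Hnf4a.

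**Figure D4:**
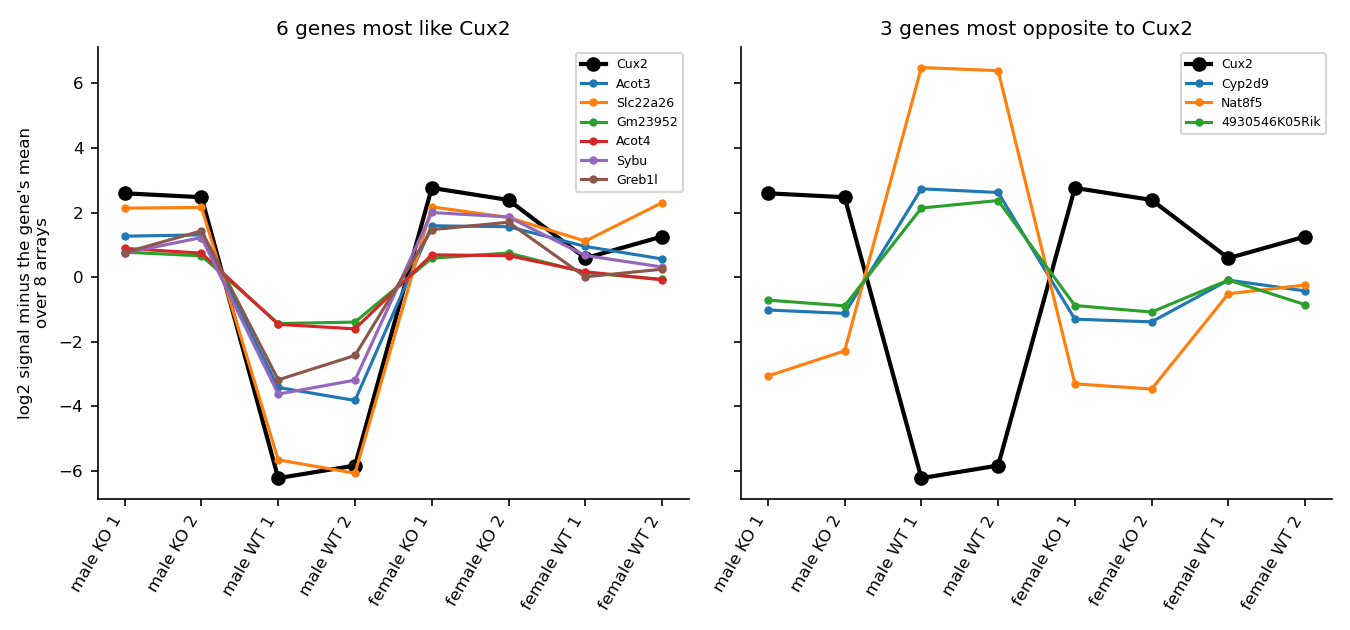
Log2 signal of each gene minus its mean over the 8 arrays (vertical axis), for Cux2 in black with the 6 most similar and the 3 most opposite genes; the horizontal axis lists the arrays (KO, knockout; WT, wild type). Both male wild-type arrays stand apart from the other 6 in each profile.

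Other regulators tied to sex bias of mouse liver were counted beside Cux2. Of 13 measured, 4 rose and 0 fell in males, where 5.77% of all genes were called higher and 4.93% lower. In females 1 rose and 1 fell, where 3.48% were called higher and 2.45% lower. Averaged over both sexes 3 rose and 1 fell, where 9.82% were called higher and 10.0% lower, with a median of 0.28 against -0.02 over all genes. Trim24, a nuclear receptor coregulator, had levels of 2.79 and 2.93 in male knockout, against 1.64 and 1.28 in male wild type, and of 2.80 and 2.92 in female knockout, against 2.94 and 2.74 in female wild type. It rose in males (1.40, limma adjusted p = 0.0050) and was lower in wild-type males than in wild-type females (-1.38, adjusted p = 0.0225), while its interaction did not pass (adjusted p = 0.150). The nuclear protein gene Tox had a male difference of 1.52 (adjusted p = 0.0368) and a female one of -0.39 (adjusted p = 0.495). The growth hormone receptor gene Ghr rose in both sexes (2.70 in males, 3.11 in females), and the estrogen receptor gene Esr1 rose in males (2.37, adjusted p = 0.00291). The 1 that fell in females was Nr1i3 (-1.03, limma adjusted p = 0.0368), with a male difference of 0.14 (adjusted p = 0.685). The 1 that fell averaged over both sexes was Zhx2 (-0.52, adjusted p = 0.0362). Stat5a, Stat5b, Ezh1, Ezh2 and Nr0b2 did not pass in either sex.

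Of 27 other liver-enriched transcription factors 25 were measured; Hnf4g and Onecut3 did not pass the filter. In males 2 rose and 2 fell, in females 0 rose and 2 fell, and averaged over both sexes 2 rose and 5 fell (median -0.16 against -0.02 over all genes). Of all genes, 10.7% were called in males, 5.93% in females and 19.8% averaged. Hlf, a PAR leucine-zipper factor, fell by 1.0 in both sexes (limma adjusted p = 0.00534 in males and 0.00887 in females). Its PAR relatives Dbp and Tef, whose levels split the knockout replicates as given above, did not pass (averaged -1.63 and -0.92, adjusted p = 0.327 and 0.0849). The C/EBP relatives Cebpd and Cebpe fell on average by 0.97 and 0.83 (adjusted p = 0.0151 and 0.0205), where 10.0% of all genes were called lower; neither passed in 1 sex alone, and Cebpg did not pass (-0.27, adjusted p = 0.166). Zbtb20 fell in males (-0.71, adjusted p = 0.0117) and Foxo1 in females (-0.57, adjusted p = 0.0426). Gata6 (1.02, adjusted p = 0.0243) and Tbx3 (1.49, adjusted p = 0.0140) rose in males. In females the Tbx3 difference was -0.72 and did not pass (limma adjusted p = 0.124), nor did its interaction of 2.21 (adjusted p = 0.115). Foxa3, the remaining FOXA gene, did not pass (0.28 averaged, adjusted p = 0.482), nor did Prox1 or Nr5a2.

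Textbook targets of these factors did not move as 1 group. Of 22 genes bound by HNF4A or FOXA factors, 3 rose and 1 fell in each sex, and 5 rose and 2 fell averaged over both (median 0.13 against -0.02), beside the same 10.7%, 5.93% and 19.8% of all genes called. Apoa4, an apolipoprotein of triglyceride-rich particles, had a male difference of 2.87 and a female one of 1.71, F7, coagulation factor VII, 1.95 and 2.02, and Apoc2, the cofactor of lipoprotein lipase, 1.70 and 1.26; all 6 passed. Ttr, the thyroxine carrier, fell by 0.50 in males and 0.56 in females. Of 16 targets of C/EBP factors, 1 rose and 0 fell in males and none passed in females by limma (3 at an unadjusted p under 0.05); averaged, 2 rose and 1 fell (median 0.18 against -0.02), a share near the 19.8% of all genes. Lcn2, an acute phase protein, rose in males (1.79, adjusted p = 0.0110), Tat, tyrosine aminotransferase, rose on average (0.73, adjusted p = 0.0257) and Hp, haptoglobin, fell on average (-0.35, adjusted p = 0.0300). Alb, Pck1, G6pc and Tat stand in both target lists.

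**Figure D5:**
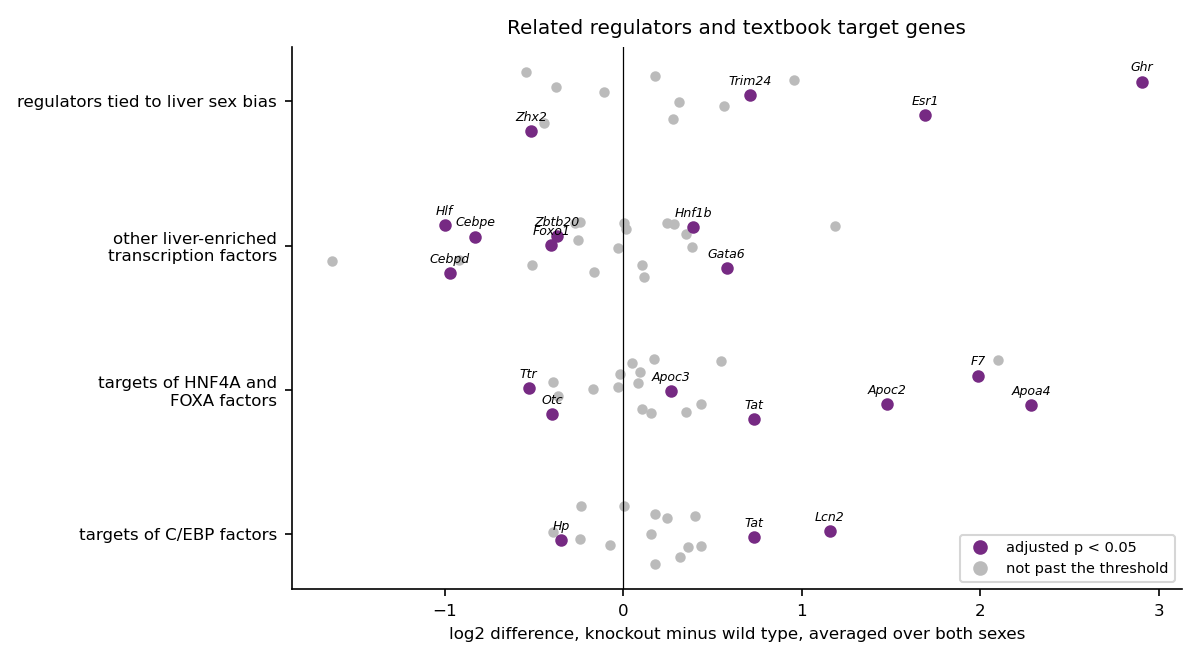
Log2 difference, knockout minus wild type averaged over both sexes, for each measured gene of 4 lists (rows; vertical scatter only separates points); purple points passed a limma adjusted p of 0.05. Among the points that passed, Ghr, Apoa4 and F7 lie farthest to the right, at 2.90, 2.29 and 1.99.

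Markers of other liver cells were read beside these results, since in whole liver fewer cells of a type and less RNA per cell cannot be told apart. Of all genes, 5.77% were called higher and 4.93% lower in males, and 3.48% higher and 2.45% lower in females. The counts of markers below describe the lists and test nothing about them. Hepatocyte markers had 1 of 8 higher (Asgr1) and 1 lower (Ttr) in each sex. Their summed linear level relative to the 75th percentile was 6003 and 5905 in male knockout against 5589 and 5720 in male wild type, and 5826 and 5168 in female knockout against 5153 and 5178 in female wild type. Macrophage and Kupffer cell markers, which matter for Cebpb, had 0 of 10 past the limma threshold in either sex (0 at an unadjusted p under 0.05), with sums of 159 and 124 in male knockout against 120 and 127 in male wild type, and 135 and 155 in female knockout against 138 and 139 in female wild type. Of 8 neutrophil markers 4 were measured and 0 passed by limma in either sex (0 in males and 1 in females at an unadjusted p under 0.05); Mmp9, Cxcr2 and Ngp were well above background on no array. Their sums were 2.03 to 2.17 in male knockout, 1.61 to 1.77 in male wild type, 2.70 to 4.46 in female knockout and 1.85 to 2.20 in female wild type. Cholangiocyte markers, of cells that also express Onecut1 and Foxa genes, had 1 of 8 higher in each sex, Prom1, and Epcam was well above background on 4 arrays. Prom1 was well above background on both arrays of each knockout group, on 0 male wild-type arrays and on 1 female wild-type array. It thus passed the filter through the knockout groups, and its male difference is only a bound (at least 4.92-fold in the main processing). The cholangiocyte sums were 7.24 to 8.17 in male knockout and 5.70 to 6.52 in male wild type. In females they were 7.72 to 8.86 in knockout and 7.44 to 9.62 in wild type. Such sums weigh bright probes most, for cholangiocytes Spp1. Endothelial markers had 3 of 8 higher in males, Vwf, Lyve1 and Stab2, and 1 in females, Vwf. Their sums were 107 to 114 in male knockout against 72.4 to 75.5 in male wild type, and 104 to 108 in female knockout against 88.6 to 96.0 in female wild type. Stellate cell markers had 3 of 8 higher in males and 1 lower in females, Lrat. Their sums were 97.1 to 105 in male knockout, 73.1 to 85.8 in male wild type, 102 to 120 in female knockout and 73.4 to 113 in female wild type. Dcn weighed most in the stellate sums, and its level was 6.56 and 5.72 on the female wild-type arrays. In males the other 5 endothelial markers had differences of -0.17 (Pecam1) to 0.41 (Clec4g), and the other 5 stellate markers had -1.01 (Lrat) to 0.40 (Reln), none of which passed. The part of these markers in the members' results was not tested.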

How the data were processed

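The deposited scanner files give an intensity per spot, which per the file headers Feature Extraction 11.5.1.1 subtracted for background and detrended within the array. Version 9.1.3.1 stands in the submitters' processing notes. The deposited value table holds log2 values that equalled the log2 processed signal minus 1 constant per array (6.99 to 7.30) within 0.01 for 100% of probes. Its column medians were -3.25 to -3.13; it was not centred per gene.

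Spots marked as outliers or uneven (55 to 139 per array) were left out, spots of a probe were averaged on the log2 scale, and the 75th percentile of each array was subtracted. Probes were named by RefSeq accession (32994 of 56605, assembly GRCm38.p6). The array grid is on mm9, so no probe coordinates are given, and the promoter coordinates above are those of GRCm38.p6. A probe was kept if well above background on both arrays of 1 group (33577). The kept probe with the highest mean stood for a gene. Limma 3.58.1 (R 4.3.3) fitted 4 group means to the 8 arrays over 26548 genes and transcripts; the prior degrees of freedom were 2.07. Adjusted p is Benjamini-Hochberg at 0.05. The number of arrays limits the precision. Alternatives covered background, normalization, filter, probes, samples, replicate block and each array left out. Named were all members, up to 4 genes per list and contrast by adjusted p (list genes beyond these, Bcl6, Nfil3 and Igfbp1 were chosen after their values were seen), and the 6 and 3 genes by correlation with Cux2. Members and lists were chosen with earlier results of these data known. Promoters were read and plots drawn in Python 3.11.15 (matplotlib 3.10.9, pandas 2.3.3).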

Additional observations from a re-analysis of the deposited data

Results flagged for a closer look

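The difference of Cux2 between knockout and wild type was not the same in the 2 sexes: it was larger in males by 6.91 ± 0.37 on the log2 scale (limma interaction, adjusted p = 0.00948), and in each sex both knockout arrays lay above both wild-type arrays. The male wild-type level was not well above background, so the fitted size depends on how dim signals are treated: 2.43 with normexp and 5.12 with the male difference at its bound.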

How the results depend on the processing

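The number of members called was 5 in males, with 2 without the filter on dim probes, 3 with only the groups compared, and 2 to 5 with 1 array left out (2 without male knockout replicate 1 or 2 or male wild-type replicate 2, 3 without male wild-type replicate 1 or either female knockout array). In females it was 3, with 1 without the filter, 0 with only the groups compared, and 1 to 2 with 1 array left out (1 without any knockout array). Averaged over both sexes it was 6, and 4 to 7 with 1 array left out (4 without any knockout array). Between sexes in wild type it was 1, with 2 under normexp, and 0 where a probe had to be well above background on every array, which leaves Cux2 untested; the interaction count was likewise 0 there. Where not stated, the cause was not tested.

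Sign changes were confined, in the alternatives run, to differences that did not pass. Hnf4a in males was 0.022 with quantile normalization, and under normexp the male minus female differences in knockout were -0.011 for Cux1, 0.0070 for Cux2 and -0.021 for Foxa1. With 1 array left out, the interaction ran from -0.19 to 0.13 for Cebpa, -0.44 to 0.69 for Foxa2, -0.075 to 0.63 for Hnf4a, -1.75 to 0.14 for Onecut1 and -0.072 to 0.19 for Onecut2. The knockout difference ran from -0.64 to 0.50 in males and -0.42 to 0.15 averaged for Foxa2, -0.87 to 1.03 in males for Onecut1, and -0.70 to 0.0048 in females for Hnf4a. Male minus female in wild type ran from -0.12 to 0.070 for Cebpb, -0.24 to 0.90 for Foxa2, -0.48 to 0.23 for Hnf4a and -0.59 to 1.30 for Onecut1. In knockout it ran from -0.23 to 0.15 for Cux2, -0.14 to 0.18 for Foxa1 and -0.24 to 0.025 for Onecut2.

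Over all genes, calls in males were 2841, and 1225 without the filter. In females they were 1574, with 2651 under normexp, 522 without the filter and 361 with only the groups compared. Averaged they were 5262, and 2613 without the filter. Between sexes in wild type they were 259, with 615 under normexp, 99 without the filter and 42 with only the groups compared; in knockout 20, with 9 under normexp, 11 with only the groups compared and 1 with every array above background; and for the interaction 50, with 16 without the filter and 25 with the replicate block.

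Groups share replicate numbers, but nothing in the labels says that a number marks a shared source, and deviations of same-numbered arrays correlated at -0.0017 to 0.102. These correlations over all genes cannot show whether single genes shifted together. Nfil3 and Dbp shifted between replicates alike in both sexes, but in opposite directions in knockout and wild type. The replicate block fits 1 shift per gene for all groups, so it cannot absorb such a pattern. With the replicate block, members called were 5 in males, 2 in females (Onecut2 lost, adjusted p = 0.0730), 6 averaged, 1 and 0 between sexes in wild type and knockout, and 1 for the interaction.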
